A study of Mus musculus with 6 samples.

Results

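The genes examined here encode the constitutive proteasome and its activators, measured by RNA-seq in osteoclasts (OCs) of WT and Dcir-/- mice. Members were taken by symbol: every row of the deposited table named Psma, Psmb, Psmc or Psmd with a number, together with Psme1 to Psme4, but without Psmb8, Psmb9 and Psmb10, the inducible catalytic subunits. This gave 39 of the 21492 genes in the table. They comprise 8 genes of the 20S alpha ring, 7 of the 20S beta ring, 6 ATPases of the 19S base, 3 further base subunits, 8 lid subunits, 3 chaperones of 19S assembly that carry a Psmd symbol and 4 activators. Psmb11, the catalytic subunit of thymic proteasomes, would match this selection, but no row of the deposited table bore that symbol.

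The study asked how loss of dendritic cell immunoreceptor (DCIR), an inhibitory C-type lectin receptor encoded by Clec4a2, alters gene expression in OCs, the multinucleated cells that resorb bone. Both groups were C57BL/6J: 3 libraries of WT OCs, numbered 3, 82 and 94, and 3 of Dcir-/- OCs, numbered 21, 22 and 83, with the deletion backcrossed for 12 generations. By the paper the mice were 8 to 12 weeks old, and the WT mice were bought and then kept beside the mutants, so that the source of the animals and their genotype cannot be told apart. All cultures were grown from bone marrow with 20 ng/ml of M-CSF and then also received 100 ng/ml of RANKL, for 2 days by the sample labels and for 4 days by the paper. Whether each numbered library stands for its own mouse or culture is not said, and the p-values therefore reflect the spread among these libraries alone, which may be technical.

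The proteasome degrades proteins marked with ubiquitin chains. Its 20S core is a barrel of stacked rings, in which alpha subunits form the gate and Psmb5, Psmb6 and Psmb7 of the beta rings carry the proteolytic sites. The 19S particle caps the core: its lid and base capture and deubiquitylate the substrate, and the ATPases of the base unfold it and thread it in. The 3 catalytic subunits can be replaced by Psmb8, Psmb9 and Psmb10, which interferon-gamma can raise together with the PA28 activator, made of Psme1 and Psme2. In contrast, Psme3 and Psme4 form other, mainly nuclear activators. In OCs, proteasomes act in NF-kB signaling downstream of RANK, where they degrade IkB.

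Levels are given in CPM, the authors' adjusted counts scaled by the mean of the 6 column totals. The 14047 genes that reached 1 CPM in no fewer than 3 libraries were tested between genotypes with limma on log2(CPM + 1), and p-values were adjusted over all of these genes by the Benjamini-Hochberg method with a threshold of 0.05. All 39 members passed this filter. Clec4a2 averaged 268 ± 25.9 CPM over the WT libraries and 0.812 ± 0.329 CPM over the Dcir-/- libraries (SD, n = 3 each), as the genotype labels give it. In a principal component analysis the first component held 53.5% of the variance, and WT library 3 lay furthest out on it, at 35.3. WT libraries 82 and 94 were at 7.1 and -4.13, above Dcir-/- libraries 21, 22 and 83 at -22.4, -7.5 and -8.4. The next component held 27.5% and set WT library 94 apart. The OC markers Ctsk and Acp5 were at means of 3095 to 4268 CPM in both groups. Of 11 OC markers all 11 had a higher mean in Dcir-/- OCs, the median log2 fold change being 0.14, and they summed to 18056 to 23587 CPM in the Dcir-/- and 17641 to 19940 CPM in the WT libraries. By limma 0 of the 11 passed. At an unadjusted p under 0.05, limma gave 4 higher and 0 lower, against 5.82% and 6.68% of all genes tested. The 4 were Calcr at 0.50, Itgb3 at 0.41, Oscar at 0.32 and Dcstamp at 0.25. Groups did not overlap for these 4 and Atp6v0d2, all with Dcir-/- above WT, against 10.5% of all genes tested. Of 5 erythroid markers only Klf1 was in the table, at or below 0.415 CPM in every library.

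Summed RNA of the constitutive proteasome overlapped between the genotypes, and whether its levels were equal was not tested. The 39 subunits summed to 4908, 4862 and 4777 CPM in the Dcir-/- libraries 21, 22 and 83 and to 4540, 4820 and 5738 CPM in the WT libraries 3, 82 and 94. The Dcir-/- libraries lay close together and inside the WT range, which was set by WT library 3 at the bottom and WT library 94 at the top. No subunit passed the test in limma: 0 were higher and 0 were lower, where 0.149% and 0.292% of all genes tested were, or 0.441% in either direction. At an unadjusted p under 0.05, limma gave 0 higher subunits and 2 lower ones, the PA28 genes Psme1 and Psme2, where 5.82% of all genes were higher and 6.68% lower, or 12.5% in either direction. Of the 39, 13 had a higher and 26 a lower mean in Dcir-/- OCs. Their median log2 fold change, given as Dcir-/- over WT throughout, was -0.06, against 0.01 for all genes tested. Groups did not overlap for 3 subunits, Psme1, Psme2 and Psmb1, all with Dcir-/- below WT, as did 9.34% of all genes tested, and for 0 subunits with Dcir-/- above WT, as did 10.5%. In either direction this was 3 of 39 members, against 19.8% of all genes tested.

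For the 34 subunits of the 20S core, the 19S particle and the 19S chaperones, leaving aside the testis subunit Psma8, mean levels ranged from 28.8 to 411 CPM. Their log2 fold changes ranged from -0.21 to 0.08. All 34 intervals of the fold change included 0, with 95% bounds that reached no lower than -0.46 and no higher than 0.36. The smallest adjusted p among them was 0.505 from limma. An interval that holds 0 does not show equal levels, but a change in any of these genes beyond those bounds lay outside its interval.

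**Figure D1:**
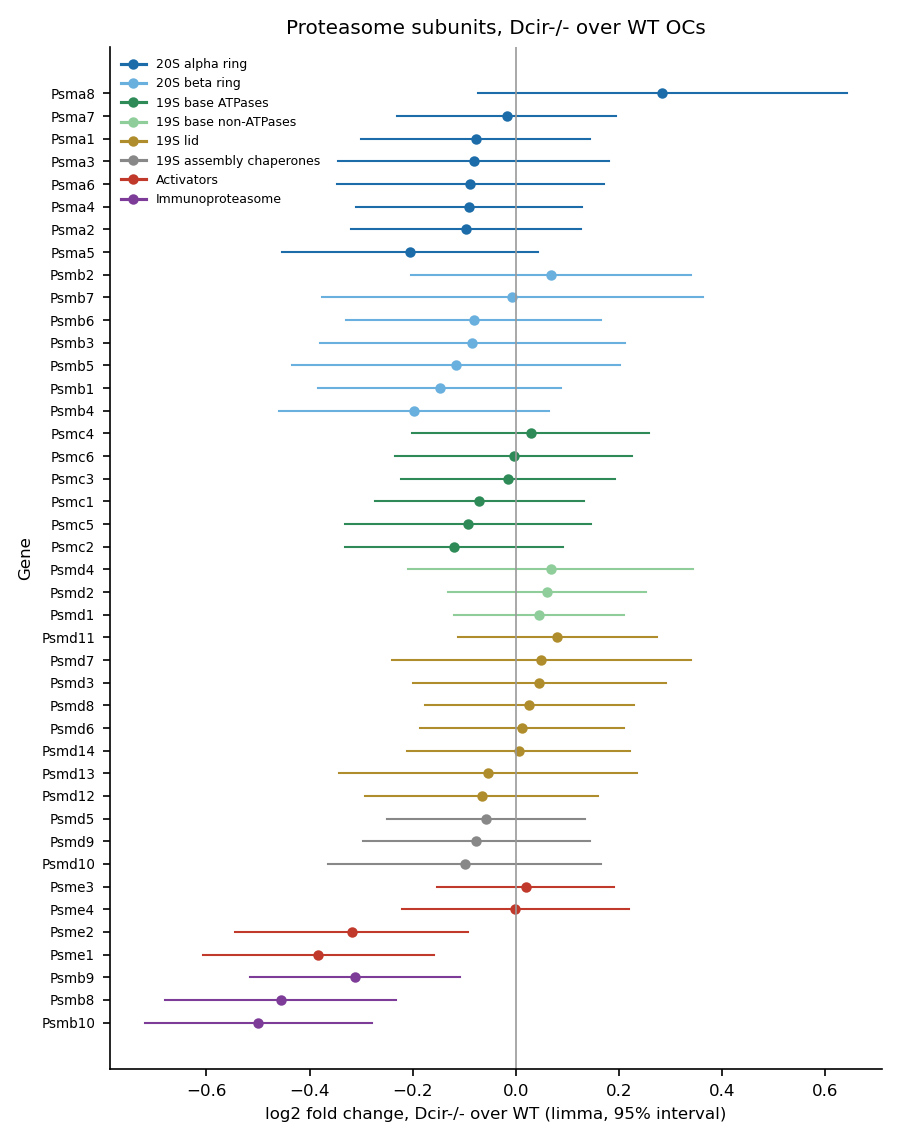
Each dot is the log2 fold change of a gene (x axis, log2(CPM + 1) scale, Dcir-/- over WT, n = 3 libraries each) with its 95% interval from limma, coloured by the part of the proteasome, with the inducible catalytic subunits added at the bottom. Intervals of the core and 19S genes cross 0, whereas those of Psme1 at -0.38, Psme2 at -0.32 and the inducible Psmb8, Psmb9 and Psmb10 lie below it, although none of these genes passed the adjusted threshold.

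The alpha ring gates the core. Psma5 had the smallest p of this ring. It was at 84.1, 90.9 and 89.3 CPM in the Dcir-/- libraries 21, 22 and 83 and at 89.0, 99.4 and 119 CPM in the WT libraries 3, 82 and 94. The groups overlapped, since WT library 3 lay below 2 of the Dcir-/- libraries, and the log2 fold change was -0.21 (SE 0.11; limma, adjusted p = 0.505). The other ubiquitous alpha subunits, Psma1, Psma2, Psma3, Psma4, Psma6 and Psma7, had log2 fold changes of -0.10 to -0.02. Psma8, which replaces Psma7 in testis, was the lowest of the members, at 2.64, 2.40 and 1.99 CPM in the Dcir-/- libraries and 1.88, 1.319 and 2.08 CPM in the WT libraries. Its groups overlapped, and its log2 fold change of 0.28 (SE 0.16; limma, adjusted p = 0.520) was the highest among the members.

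Among the beta subunits, Psmb5 carries the chymotrypsin-like site. It was at 148, 140 and 146 CPM in the Dcir-/- libraries 21, 22 and 83 and at 132, 147 and 199.7 CPM in the WT libraries 3, 82 and 94. Psmb6, with the caspase-like site, was at 172, 162 and 167 CPM in Dcir-/- and at 157, 168 and 209.7 CPM in the WT libraries. Psmb7, with the trypsin-like site, was at 173, 163 and 158 CPM in Dcir-/- and at 130, 160 and 217 CPM in the WT libraries. For all 3 catalytic genes WT library 3 was the lowest and WT library 94 the highest, with the Dcir-/- libraries between them. Their log2 fold changes were -0.12 (SE 0.14) for Psmb5, -0.08 (SE 0.11) for Psmb6 and -0.01 (SE 0.16) for Psmb7, with adjusted p = 0.793, 0.815 and 0.994 from limma.

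The remaining beta subunits have no proteolytic site. Psmb4 was at 104, 97.7 and 95.6 CPM in Dcir-/- and at 101, 107 and 136 CPM in the WT libraries, and its log2 fold change of -0.20 (SE 0.11; limma, adjusted p = 0.545) had the smallest p of the ring. Psmb1 was at 116, 114 and 113 CPM in Dcir-/- and at 118, 116 and 149 CPM in the WT libraries. Its groups did not overlap, but the gap between Dcir-/- library 21 and WT library 82 was narrow, and the log2 fold change of -0.15 (SE 0.10) did not pass (limma, adjusted p = 0.619). Psmb2 went the other way, at 104, 106 and 101 CPM in Dcir-/- and 83.6, 97.6 and 118 CPM in the WT libraries, with a log2 fold change of 0.07 (SE 0.12; limma, adjusted p = 0.872). Psmb3 was at -0.08 on that scale.

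Of the 6 base ATPases, which form the unfolding ring, Psmc2 had the smallest p. It was at 96.4, 100.5 and 93.8 CPM in Dcir-/- and at 94.2, 106 and 117 CPM in the WT libraries. The groups overlapped, and the log2 fold change was -0.12 (SE 0.09; limma, adjusted p = 0.656). Psmc1, Psmc3, Psmc4, Psmc5 and Psmc6 lay between -0.09 and 0.03. All 3 non-ATPase base genes had a slightly higher mean in Dcir-/- OCs. Psmd2, the scaffold that docks shuttle factors, was the most abundant member in CPM, at 433, 390 and 411 CPM in Dcir-/- and 364, 398 and 423 CPM in the WT libraries. The groups overlapped (log2 fold change 0.06, SE 0.08; limma, adjusted p = 0.828). Psmd4, a ubiquitin receptor, was at 157, 142 and 149 CPM in Dcir-/- and 122, 138 and 172 CPM in the WT libraries (log2 fold change 0.07, SE 0.12; limma, adjusted p = 0.875), and Psmd1, a scaffold, was at 0.04 on the log2 scale.

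In the lid, 6 of 8 genes had a higher and 2 a lower mean in Dcir-/- OCs, the median log2 fold change being 0.02. Psmd11, a scaffold subunit, was at 102, 103 and 94.9 CPM in Dcir-/- and at 86.8, 94.6 and 102 CPM in the WT libraries, with overlap between the groups (log2 fold change 0.08, SE 0.08; limma, adjusted p = 0.758). Psmd14, the metalloprotease that removes ubiquitin chains, and its partner Psmd7 were at 0.01 and 0.05. The others were Psmd3 at 0.05, Psmd6 at 0.01, Psmd8 at 0.03, Psmd12 at -0.07 and Psmd13 at -0.05. Among the chaperones that guide assembly of the base, Psmd10, also called gankyrin, was at 89.9, 96.6 and 89.3 CPM in Dcir-/- and at 85.4, 95.2 and 118 CPM in the WT libraries. Its groups overlapped (log2 fold change -0.10, SE 0.12; limma, adjusted p = 0.788), and Psmd5 and Psmd9 were at -0.06 and -0.08.

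The subunits varied together across libraries. WT library 94 was the highest of the 6 for 33 of 39 members, while it was the highest for 28.8% of all genes tested. WT library 3 was the lowest for 23 of 39 members, against 31.2% of all genes. Over the 6 libraries, Pearson correlation of a member with the mean of the others was at or above 0.9 for 21 members and had a median of 0.908, or 0.951 once each group's mean was taken off. These values describe 6 shared libraries, of which WT library 94 carries most of the spread. The same correlation was not computed for other genes, so it cannot be called particular to the proteasome. Psmd12 and Psma3, with r of 0.989 and 0.987, were closest to the common pattern. The members under 0.5 were Psme1 (0.406), Psmd5 (0.404), Psmd1 (0.283), Psma8 (0.137) and Psme4 (-0.758). Psme4, which encodes PA200, was highest in WT library 3 and lowest in WT library 94, the reverse of the core genes.

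**Figure D2:**
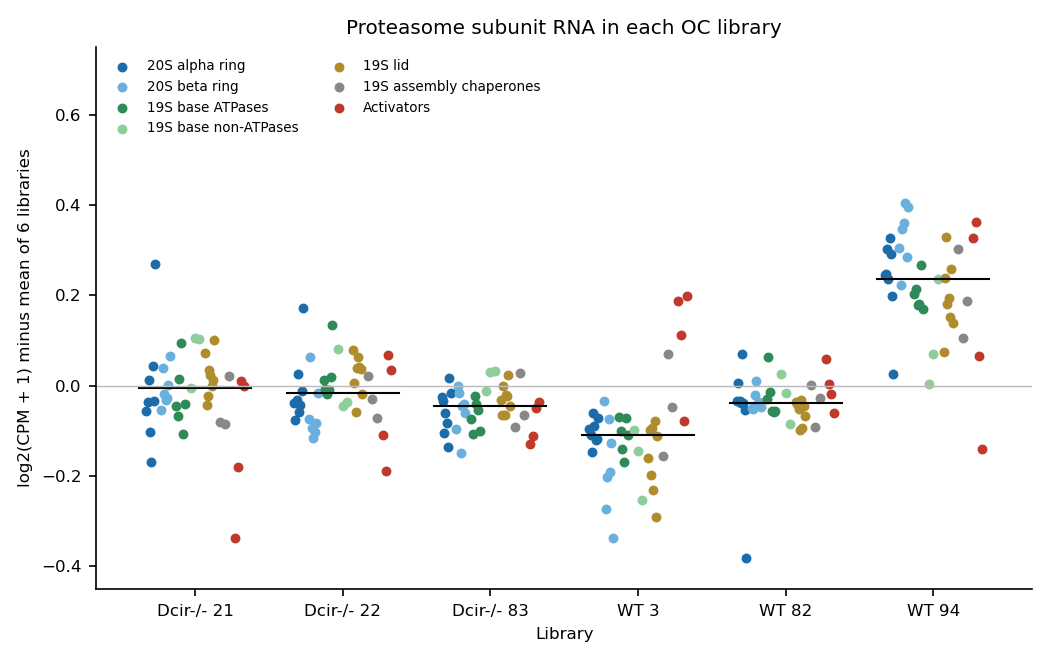
For each library (x axis), every dot is a member's log2(CPM + 1) minus its mean over the 6 libraries (y axis), coloured by the part of the proteasome, and the black bar is the median over the 39 members. The bar of WT library 94 stands at 0.24 and that of WT library 3 at -0.11, while the bars of the 3 Dcir-/- libraries lie between -0.04 and -0.00.

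The shift of WT library 94 was larger for the core than for the base scaffolds. Its median deviation was 0.35 for the beta ring, 0.25 for the alpha ring, 0.19 for both the ATPases and the lid and 0.07 for the non-ATPase base genes. The members spread more between WT than between Dcir-/- libraries: the median coefficient of variation over the 39 members was 13.0% in WT and 3.83% in Dcir-/- OCs, against 9.74% and 4.91% for 6240 other tested genes in the same range of CPM. Other sets of genes, taken by symbol alone, were also high in WT library 94. The 244 genes with an Rpl or Rps symbol and a number summed to 34974 CPM there and to 27320 to 29410 CPM in the other libraries. The 87 genes with an Nduf, Cox4 to Cox8 or Atp5 symbol summed to 17100 CPM, against 12918 to 16067 CPM. Their part in the proteasome values was not tested.

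The direction of most subunits depended on which of these WT libraries was included. Without WT library 94, 30 members had a higher and 9 a lower mean in Dcir-/- OCs, and the median log2 fold change moved to 0.06. Without WT library 3, 5 were higher and 34 lower, with a median of -0.12. No member passed the adjusted threshold in either fit by limma. At an unadjusted p under 0.05, Psmb2 and Psmd4 were higher without WT library 94, and Psma5, Psmb4 and Psmc2 were lower, beside Psme1 and Psme2, without WT library 3. Psmb7, for example, moved from 0.19 without WT library 94 to -0.18 without WT library 3.

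**Figure D3:**
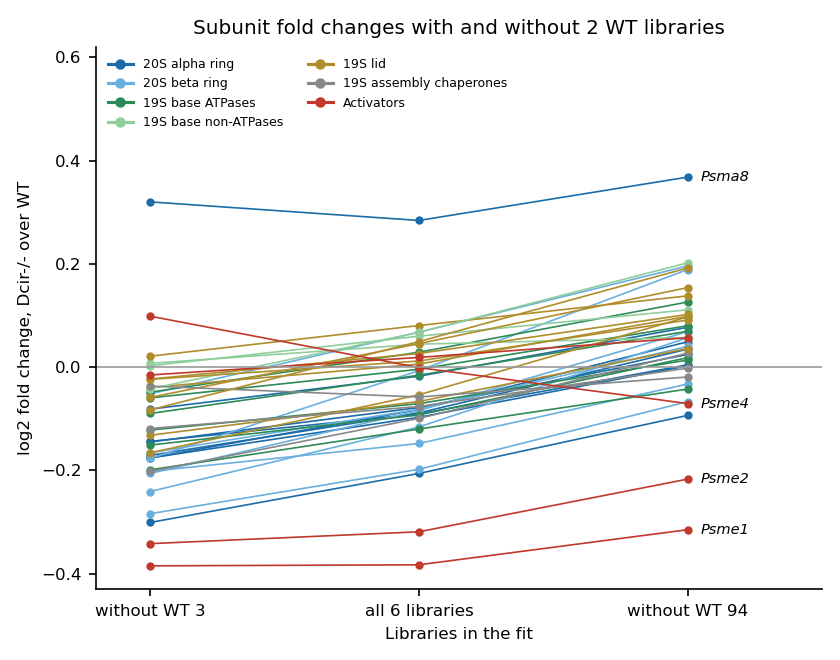
Lines join the log2 fold change (y axis, Dcir-/- over WT) of each of the 39 members in 3 fits (x axis): without WT library 3, with all 6 libraries and without WT library 94. Most lines cross 0 between the fits on the left and on the right, Psme1 and Psme2 are the lowest and Psma8 the highest in all 3, and Psme4 runs from above 0 to below it.

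The PA28 activator genes had the lowest fold changes of the members. Psme1, encoding PA28 alpha, was at 82.7, 97.0 and 95.7 CPM in the Dcir-/- libraries 21, 22 and 83 and at 119, 109 and 132 CPM in the WT libraries 3, 82 and 94. Psme2, encoding PA28 beta, was at 117, 116 and 123 CPM in Dcir-/- and at 144, 133 and 171 CPM in the WT libraries. For both genes every Dcir-/- library lay below every WT library. The log2 fold change was -0.38 (SE 0.10; 95% interval -0.61 to -0.16; limma, adjusted p = 0.180) for Psme1 and -0.32 (SE 0.10; 95% interval -0.54 to -0.09; limma, adjusted p = 0.245) for Psme2. Neither passed the threshold over all genes. The values stayed between -0.45 and -0.31 for Psme1 and between -0.40 and -0.22 for Psme2 when each library was left out in turn.

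The other activators differed from PA28. Psme3, encoding the nuclear PA28 gamma, was at 102, 106 and 97.7 CPM in Dcir-/- and at 95.9, 100.0 and 106 CPM in the WT libraries, a log2 fold change of 0.02 (SE 0.08; limma, adjusted p = 0.951). Psme4 was at 121, 124 and 118 CPM in Dcir-/- and at 139, 116 and 109 CPM in the WT libraries, a log2 fold change of -0.00096 (SE 0.10; limma, adjusted p = 0.998). In both the groups overlapped, and the WT libraries spanned the Dcir-/- ones for Psme4.

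The inducible catalytic subunits, which lie outside the selection, are the counterparts of Psmb5, Psmb6 and Psmb7. Psmb8 was at 87.3, 95.7 and 99.1 CPM in Dcir-/- and 123, 119 and 147 CPM in the WT libraries, Psmb9 at 50.6 ± 2.72 and 63.0 ± 5.23 CPM and Psmb10 at 51.8 ± 0.609 and 74.0 ± 8.60 CPM (SD, n = 3 each). None passed, with log2 fold changes of -0.46 (SE 0.10), -0.31 (SE 0.09) and -0.50 (SE 0.10) and adjusted p = 0.125, 0.216 and 0.0938 from limma. Each was also divided by its constitutive counterpart within a library. The ratio of Psmb8 to Psmb5 was 0.590, 0.682 and 0.679 in the Dcir-/- libraries 21, 22 and 83 and 0.936, 0.811 and 0.735 in the WT libraries 3, 82 and 94. Psmb9 over Psmb6 was 0.302 ± 0.00824 in Dcir-/- and 0.356 ± 0.0314 in WT OCs, and Psmb10 over Psmb7 was 0.315 ± 0.0158 and 0.453 ± 0.108 (SD, n = 3 each). WT library 94 had the lowest WT value of all 3 ratios, whereas it had the highest CPM of the inducible genes. In all 3 ratios every Dcir-/- library lay below every WT library, with an exact two-sided permutation p of 0.1 each (adjusted p = 0.1 over the 3 ratios), the smallest that 3 against 3 libraries can give. The CPM of all 3 inducible genes already lay apart, with Dcir-/- below WT, against 9.34% of all genes tested. Because the ratios were chosen after these values were seen, their p adds no separate evidence.

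The same was seen for PA28 against the core. Psme1 over the mean of the 14 ubiquitous core subunits was 0.635, 0.760 and 0.756 in the Dcir-/- libraries and 1.00, 0.844 and 0.809 in the WT libraries. For Psme2 the values were 0.898, 0.912 and 0.970 against 1.20, 1.03 and 1.05. Neither pair of groups overlapped, while those of Psme3 (0.772 to 0.832 in Dcir-/- and 0.651 to 0.804 in the WT libraries) and Psme4 (0.925 to 0.968 and 0.672 to 1.16) did. The sum of the 8 lid genes over the core sum was 0.562, 0.569 and 0.555 in Dcir-/- and 0.535, 0.532 and 0.504 in the WT libraries, so that the groups did not overlap, with a ratio of means of 1.07. For the sum of the 6 base ATPases the ratio to the core sum was 0.370 to 0.388 and 0.345 to 0.379. All ratios to the core were chosen after values were seen and are given as descriptions, with no test. How often groups fail to overlap for ratios of other genes was not computed. For single genes it was 19.8% of all genes tested, in either direction.

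**Figure D4:**
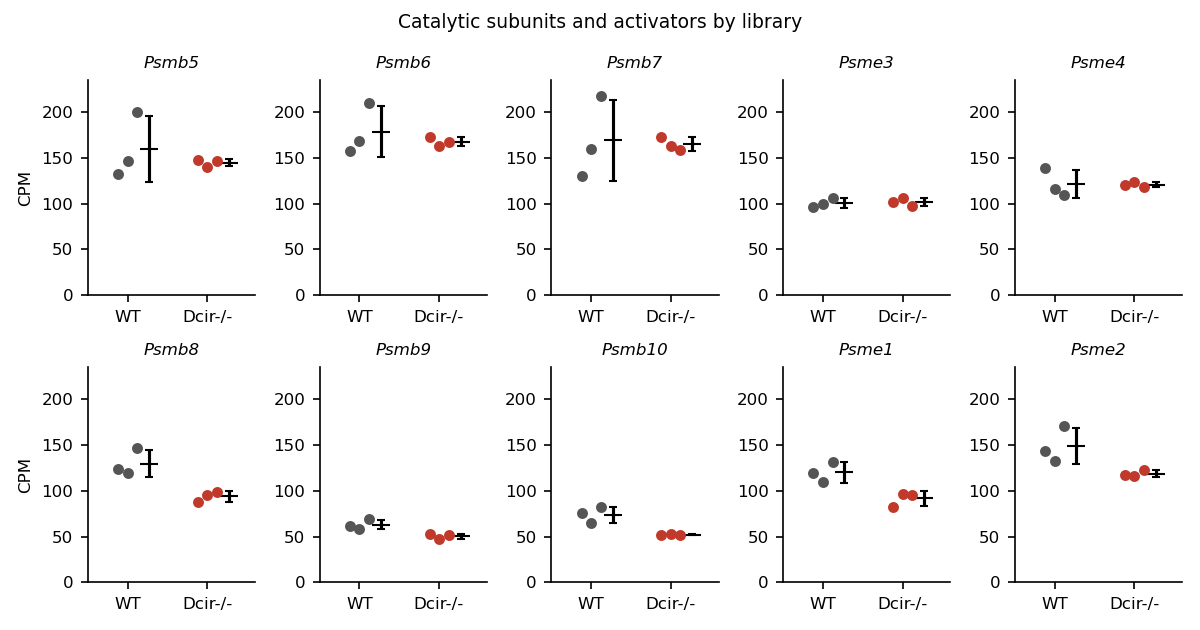
CPM (y axis, from 0) of the constitutive catalytic subunits and of Psme3 and Psme4 (upper row) and of the inducible catalytic subunits and of Psme1 and Psme2 (lower row) in 3 WT (grey) and 3 Dcir-/- libraries (red), with mean and SD beside the dots. In the lower row no red dot reaches a grey one, which held for 9.34% of all genes tested, while in the upper row the groups overlap.

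Lists of interferon-gamma response genes and of markers of other cells were read beside the PA28 values. Of 20 interferon-gamma response genes, 18 were tested and all 18 had a lower mean in Dcir-/- OCs, the median log2 fold change being -0.37. They summed to 3082 to 3187 CPM in Dcir-/- and to 3448 to 4597.5 CPM in the WT libraries. By limma 0 of them passed. At an unadjusted p under 0.05, 11 were lower and 0 higher, against 6.68% and 5.82% of all genes tested. Groups did not overlap for 11 of the 18, all with Dcir-/- below WT, against 9.34% of all genes tested. Tap2 was highest in WT library 94, as Psme1 and Psme2 were, and every other listed gene in WT library 3. The median of the 18 was -0.24 without WT library 3, which had the highest sum, and -0.57 without WT library 94. Of 9 macrophage markers all had a lower mean, C1qa and C1qc passed, and the sum was 3992 to 4303 CPM in Dcir-/- and 4360 to 5878 CPM in the WT libraries. Of 8 neutrophil markers 7 were tested and lower in mean, Ltf, Ngp, S100a8 and S100a9 passed, and the sum was 320 to 434 CPM and 591 to 743 CPM. By limma all 7 were lower at an unadjusted p under 0.05, and groups did not overlap for any of the 7. Platelet markers summed to 20.0 to 27.3 and 44.1 to 74.4 CPM, with Pf4 passing among the 4 tested of 5. Of these 4, limma gave 3 lower at an unadjusted p under 0.05, and groups did not overlap for 3. Of all genes tested, 0.292% passed as lower and 6.68% were lower at that unadjusted p. For 9.34% every Dcir-/- library lay below every WT library. Of 5 B cell markers 2 were tested, Cd79b and Ighm, at log2 fold changes of -0.79 and -0.82, and the sum was 7.70 to 13.4 CPM in the Dcir-/- and 16.1 to 24.3 CPM in the WT libraries. Of 7 T and NK cell markers 4 were in the table, with sums of 7.15 to 7.41 and 8.61 to 8.80 CPM, and only Trac was tested, at 7.05 to 7.16 CPM in the Dcir-/- and 8.04 to 8.37 CPM in the WT libraries, and Cd3d, Klrb1c and Nkg7 stayed at or below 0.470 CPM in every library. Of 8 stromal markers 7 were in the table, with sums of 10.1 to 11.0 and 12.3 to 13.9 CPM, and only Runx2 was tested, at 8.81 to 9.29 and 9.89 to 11.2 CPM. Of 7 dendritic cell markers 3 were tested, with a median log2 fold change of 0.27 and overlapping sums of 64.8 to 83.3 and 38.3 to 79.2 CPM, and Itgax at 0.65 was the one higher at an unadjusted p under 0.05. By limma 0 genes of these 4 lists passed. How many genes passed depended on the libraries: of all genes tested 62 did, but only 8, 2 and 6 without Dcir-/- library 21, 22 or 83 and 9 without WT library 82, and 126 without WT library 3. The part of other cells in the levels of Psme1 and Psme2 was not tested, and in bulk RNA fewer cells of a type cannot be told apart from less RNA per cell.

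Of 31 symbols listed for partners of the proteasome, 29 were in the table and tested. By limma 0 passed. At an unadjusted p under 0.05, 1 was higher, Nfe2l1, and 0 were lower, against 5.82% and 6.68% of all genes tested. Groups did not overlap for 2 of the 29, Nfe2l1 and Ubqln1, both with Dcir-/- above WT, against 10.5% of all genes tested. Nfe2l1 encodes the transcription factor that raises proteasome genes when proteasome activity is short. It was at 281, 293 and 283 CPM in Dcir-/- and at 226, 251 and 233 CPM in the WT libraries, so that every Dcir-/- library lay above every WT library. Its log2 fold change was 0.27 (SE 0.07; limma, adjusted p = 0.190), and it stayed between 0.24 and 0.31 when each library was left out in turn. Ddi2, the protease that activates the Nfe2l1 protein, and Ngly1, the N-glycanase it also needs, were at 0.06 (SE 0.15) and 0.08 (SE 0.09). Pomp, the maturation factor of the core, was at 93.7, 93.2 and 97.4 CPM in Dcir-/- and at 104, 93.8 and 122 CPM in the WT libraries (log2 fold change -0.16, SE 0.10; limma, adjusted p = 0.580). The shuttle factor genes Ubqln4 and Ubqln1 were at 0.16 (SE 0.09) and 0.09 (SE 0.07), and Vcp, an unfolding ATPase that works upstream of the proteasome, was at 0.0013 (SE 0.08). The median of the 29 was 0.02.

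Promoter sequences of 32 of the 39 members were matched in the RefSeq table of GRCm38.p6. The 250 bases before the start were searched on both strands. The antioxidant response element core TGACNNNGC, bound by Nfe2l1 and Nfe2l2, was found in 5 of 32 members (15.6%), namely Psmb5, Psmb6, Psmc6, Psmd9 and Psmd12, and in 10.2% of all 32851 promoters of that length. The CCAAT box was found in 12 members (37.5%), against 33.8% of all promoters. The gamma-activated site TTCNNNGAA was found in 0 members, against 7.02% of all promoters, and the IRF pair GAAANNGAAA in 3 members (9.38%), Psmb3, Psmd4 and Psmd9, against 2.98%. The 120 bases before the start are shown for 2 catalytic genes with the antioxidant response element core, for 2 core genes with a CCAAT box and, for comparison, for both PA28 genes and Psmb8, with matches in capitals.
Psmb5 (chr14:54617996-54618115, minus strand): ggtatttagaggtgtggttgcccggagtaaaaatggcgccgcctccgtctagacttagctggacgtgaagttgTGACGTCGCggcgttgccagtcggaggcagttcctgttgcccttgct
Psmb6 (chr11:70525237-70525356, plus strand): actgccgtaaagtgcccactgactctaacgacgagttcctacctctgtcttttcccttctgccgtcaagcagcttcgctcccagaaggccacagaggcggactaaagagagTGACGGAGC
Psma2 (chr13:14613122-14613241, plus strand): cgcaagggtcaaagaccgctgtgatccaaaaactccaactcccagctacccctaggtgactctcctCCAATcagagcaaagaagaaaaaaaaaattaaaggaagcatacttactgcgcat
Psmb3 (chr11:97703314-97703433, plus strand): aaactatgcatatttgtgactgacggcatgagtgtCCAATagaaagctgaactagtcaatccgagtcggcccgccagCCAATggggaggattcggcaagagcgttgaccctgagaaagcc
Psme1 (chr14:55578374-55578493, plus strand): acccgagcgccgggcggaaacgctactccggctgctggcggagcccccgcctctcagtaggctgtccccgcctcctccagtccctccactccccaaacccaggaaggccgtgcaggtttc
Psme2 (chr14:55591102-55591221, minus strand): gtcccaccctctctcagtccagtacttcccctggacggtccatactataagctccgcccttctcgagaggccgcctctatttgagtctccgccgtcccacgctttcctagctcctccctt
Psmb8 (chr17:34198075-34198194, plus strand): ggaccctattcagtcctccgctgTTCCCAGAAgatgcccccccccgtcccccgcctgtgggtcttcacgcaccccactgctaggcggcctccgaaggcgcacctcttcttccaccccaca
The capitals mark TGACNNNGC in Psmb5 and Psmb6, CCAAT in Psma2 and in 2 places in Psmb3, and TTCNNNGAA in Psmb8. Neither PA28 window held any of the 4 motifs, and neither did the rest of the 250 bases before the RefSeq start. GENCODE M21 places the starts of Psme1 and Psmb8 further upstream, so that their windows lie inside the genes as annotated there, and those of Psma2, Psmb3, Psmb5 and Psme2 overlap them in part. The promoter searched for Psmd9, which held the antioxidant response element core and the IRF pair, also lies inside the gene. It is at chr5:123227940-123228239, while the GENCODE M21 start is at 123169413. Sequence before those other starts was not searched as such. The 5 members with the antioxidant response element core had log2 fold changes of -0.12 (Psmb5), -0.08 (Psmb6), -0.0042 (Psmc6), -0.08 (Psmd9) and -0.07 (Psmd12). A match is a description of letters and not a binding site.

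Levels of different subunits were compared per kb of exon, from GENCODE M21 on mm10, in which all 39 members were found, on 16 chromosomes. Leaving Psma8 aside, the mean over the 6 libraries ranged from 4.09 CPM per kb for Psmd9 to 169 CPM per kb for Psmb5, a 41.3-fold range whose low end is an assembly chaperone. Within the alpha ring Psma6 was at 135 and Psma2 at 33.0 CPM per kb, and within the beta ring Psmb5 was followed by Psmb6 at 92.3 and Psmb2 at 84.5, with Psmb1 at 26.3 CPM per kb. In the 19S particle Psmd2 was at 99.8 and Psmd11 at 15.2 CPM per kb. Among the activators the order was Psme2 at 75.9, Psme1 at 48.0, Psme3 at 34.3 and Psme4 at 14.4 CPM per kb. The ranges over libraries did not overlap between these activators. Psma8 was at 0.823 CPM per kb. The exonic length counts every annotated exon, so genes with long rarely used exons come out low.

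**Figure D5:**
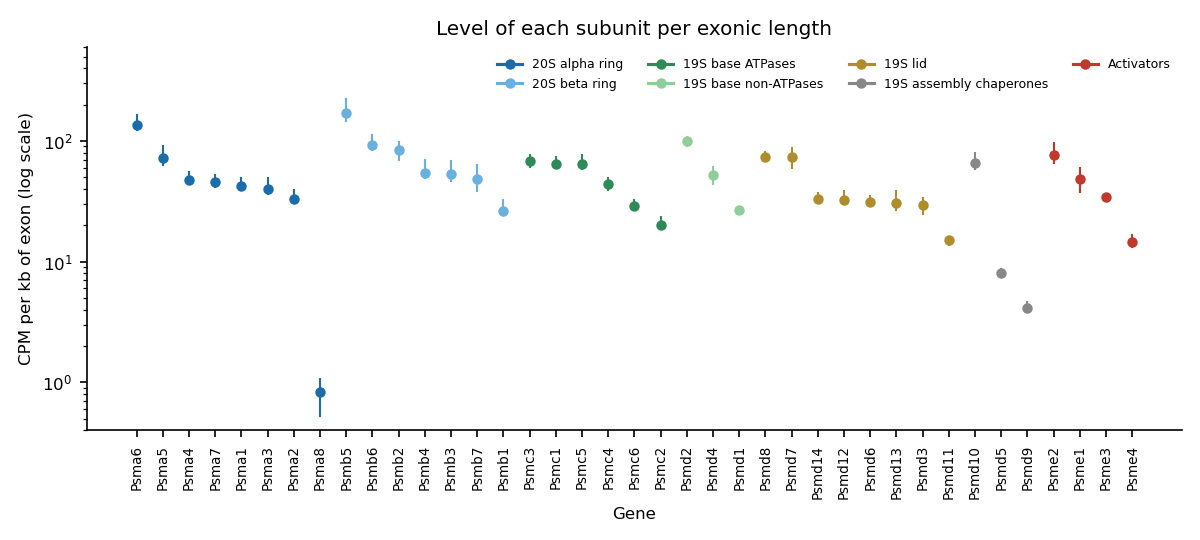
For each member (x axis, ordered by part and level) the dot is the mean CPM per kb of exon over 6 libraries (y axis, log scale) and the line its range from the lowest to the highest library. Psmb5 is the highest at 169 and Psma8 the lowest at 0.823 CPM per kb.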

How the data were processed

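The series holds 6 RNA-seq libraries of OCs, 3 WT and 3 Dcir-/-, which were grouped by their labels and all used. Trimming by the authors used Trim Galore 0.6.6, alignment to mm10 HISAT2 2.2.0, counting on exons Rsubread, and normalization edgeR. The deposited values are a signal, read from their pattern as counts put by the authors on a shared library size, of which 95.8% to 99.8% per library are not whole, with column totals of 33035020.2 to 34068308.6. The depth of a library and the counting precision cannot be read from them, so precision rests on the spread between libraries. Which annotation was used, and whether counting was stranded, is not given in the sources used here. The table also holds the authors' fold changes and adjusted p-values, which were not used.

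Values were divided by the mean total (33577739.2), and a trended fit of limma 3.58.1 (R 4.3.3) with genotype as its only term was made on log2(CPM + 1), that is with a pseudocount of 1, for the 14047 genes that reached 1 CPM in no fewer than 3 libraries. Fold changes on this scale are understated for low genes. The members and lists were chosen with earlier results of these data known. Genes named with values were the 5 subunits with the highest and the 5 with the lowest fold change, the smallest p of each part, the catalytic subunits, the activators, Psma8, Nfe2l1 and the 4 partners of smallest p; other names, and the ratios, were chosen after values were seen. The fit was tested on simulated data, in which the changes set were larger than those of any member. No shift shared by many genes of a library was simulated. That test therefore does not show whether changes as small as those of the members would be found. Alternatives covered filter, pseudocount, scaling, fit, threshold and each library left out. The monocyte marker list is not reported here.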

Additional observations from a re-analysis of the deposited data

How the results depend on the processing

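By limma 0 subunits passed under every alternative run, while the count of all genes called ranged from 2 to 126. The 0 held with an adjusted p under 0.1 as the threshold, where 112 genes were called. The smallest adjusted p of a subunit ranged from 0.139 to 0.696. No paired analysis was possible because the library numbers of the groups share none. At an unadjusted p under 0.05, between 2 and 5 subunits were lower (5 without WT library 3) and between 0 and 2 were higher (2 without WT library 94) when each library was left out. Scaling by the summed core subunits, chosen after seeing the data, gave 27 subunits with a higher and 12 with a lower mean and, at that p, 1 lower, Psme1 at -0.30 (limma, adjusted p = 0.659), and moved the median of all genes to 0.09. The median of the subunits ranged from -0.12 to 0.06 and Clec4a2 from -7.36 to -7.09 over the fits without a library.

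Fold changes near 0 turned sign. Without a library the ranges were -0.052 to 0.196 for Psmb2, -0.042 to 0.202 for Psmd4, -0.202 to 0.027 for Psmd10, -0.24 to 0.057 for Psmb5, -0.166 to 0.040 for Psmb6, -0.177 to 0.189 for Psmb7, -0.015 to 0.057 for Psme3 and -0.071 to 0.099 for Psme4. Scaling by the core moved Psmb6 to 0.0032, Psmb7 to 0.078 and Psme4 to 0.083, a scaling that fixes the core by construction. None of these values passed in limma.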

Other observations

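Copies of subunit genes and genes that share exons with members were looked up in the table and in GENCODE M21. Psme2b, a copy of Psme2, was at 1.14, 1.76 and 1.75 CPM in the Dcir-/- libraries 21, 22 and 83 and at 5.17, 2.34 and 0.966 CPM in the WT libraries 3, 82 and 94, so that it was high in WT library 3 while Psme2 itself was highest in WT library 94. The pseudogenes Psmb7-ps2 and Psma5-ps were at or below 0.0903 and 0.142 CPM in each library. Mir686 lies within Psmb5 on the same strand and covers 12.1% of its exonic bases. On the opposite strand, Gm26745 shares 25.5% of the exonic bases of Psmd9, Nek6 11.8% of those of Psmb7 and Sirt3 10.1% of those of Psmd13. As the strand setting of the counting is not given in the sources used here, reads there cannot be told apart.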
